A study of Mus musculus with 9 samples.

Results

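Outer segment disc and matrix genes were followed in whole retina of P21 mice with and without conditional deletion of the TET enzymes, which oxidise 5-methylcytosine. The genes were Prph2, Rom1, Prom1, Cdhr1, Rp1, Rp1l1, Impg1, Impg2 and Fscn2, taken by symbol, 9 of the 55487 genes in the table. All mice were C57 BL/6J, and the 9 bulk RNA-seq libraries fell into 3 genotypes with 3 libraries each. Cre- retinas are labelled wild type. tHet retinas carried 1 floxed allele of each of Tet1, Tet2 and Tet3 together with a Chx10-Cre-GFP transgene, which drives Cre in retinal progenitor cells. Tet tcKO retinas were homozygous for these floxed alleles and carried the same transgene. Each library was made from the pooled retinas of 2 animals. The Chx10-Cre-GFP transgene is known to be mosaic, and Cre+ animals were in-crossed for both Cre+ genotypes, whereas Cre- mice came from Cre- breeders. Effects of genotype and of breeding line cannot be told apart where Cre- is the control.

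A rod or cone outer segment is a modified cilium filled with membrane discs. New discs evaginate from the ciliary membrane at the base, their edges are held in a hairpin by tetraspanin proteins, and the stack is held along a microtubule axoneme. Proteoglycans of the interphotoreceptor matrix surround the outer segments and link them to the pigment epithelium. Mutations in several of these genes cause retinitis pigmentosa or cone-rod and macular dystrophies in people.

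Between 9627927 and 21108256 reads were counted on genes in a library, and levels are given as counts scaled to the library total (CPM). The library labelled Tet tcKO replicate 3 stood apart, because a single ribosomal RNA gene, CT010467.1, took 28.7% of its reads. In tHet replicate 3 this gene took 3.72%, and in the other 7 libraries 0.0409% to 0.226%. All other genes of Tet tcKO replicate 3 therefore read low in CPM, so results are also given with that gene left out of the totals or with that library left out. Xist was at 1.24 to 5.28 CPM in 1 library of each genotype (Cre- replicate 1, tHet replicate 3 and Tet tcKO replicate 1) and at 647 to 1272 CPM in the others, and its part in the results was not tested. Over the whole gene, not the deleted exon, the mean level of Tet3 was 120 CPM (SD 28.2, n = 3) in Tet tcKO, beside 235 (SD 29.2) in the Cre- controls and 237 (SD 71.5) in the heterozygotes. The log2 fold change of Tet3 was −0.99 versus Cre- (limma adjusted p = 0.0174) and −0.96 versus tHet (limma adjusted p = 0.0239). Both miss the thresholds given below. Tet1 and Tet2 overlapped between all genotypes over their whole genes.

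The tests used log2(CPM + 0.5) in limma across 21330 genes. A gene was called at a log2 fold change (log2FC) of at least 1 in size and a Benjamini-Hochberg adjusted p under 0.01. Because this scale adds 0.5 CPM, it understates the change of low genes. In Tet tcKO versus Cre-, 6 of the 9 genes were called lower and 0 higher, where 1.57% of all genes tested were called lower and 2.03% higher. The 6 were Prph2, Fscn2, Impg1, Rom1, Rp1 and Prom1. Against tHet, 5 of the 9 were called lower, all of these except Rp1, and 0 higher, beside 1.61% of all genes lower and 1.39% higher. The 2 comparisons share the Tet tcKO libraries. In tHet versus Cre-, 0 of the 9 were called by limma, 0 reached an unadjusted p under 0.05, and edgeR and DESeq2 also called 0. The limma background there was 0.0% of genes lower and 0.0422% in either direction. Over all 21330 genes, 970 reached an unadjusted p under 0.05, edgeR called 1 and DESeq2 called 40. A count of 0 of 9 therefore does not set these genes apart. The median log2FC of the 9 was −1.53 in Tet tcKO versus Cre- and −1.38 against tHet, beside medians over all genes tested of 0.0012 and −0.056. Without Tet tcKO replicate 3, 4 of the 9 were called lower against Cre- and 3 against tHet, beside 99 and 89 of all 21330 genes. Without Tet tcKO replicate 1, 4 were called lower against each, beside 148 and 139 of all genes. With CT010467.1 left out of the totals, the counts were 6 and 5, beside 221 and 215 of all 21329 genes called lower. The median log2FC of all genes in Tet tcKO versus Cre- then shifted to 0.14. TMM scaling, upper-quartile scaling, edgeR and DESeq2 each called 7 of the 9 lower against each control, beside 276 to 546 of all 21330 genes. In whole retina, fewer photoreceptors, cones in place of rods and less RNA per photoreceptor cannot be told apart.

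**Figure D1:**
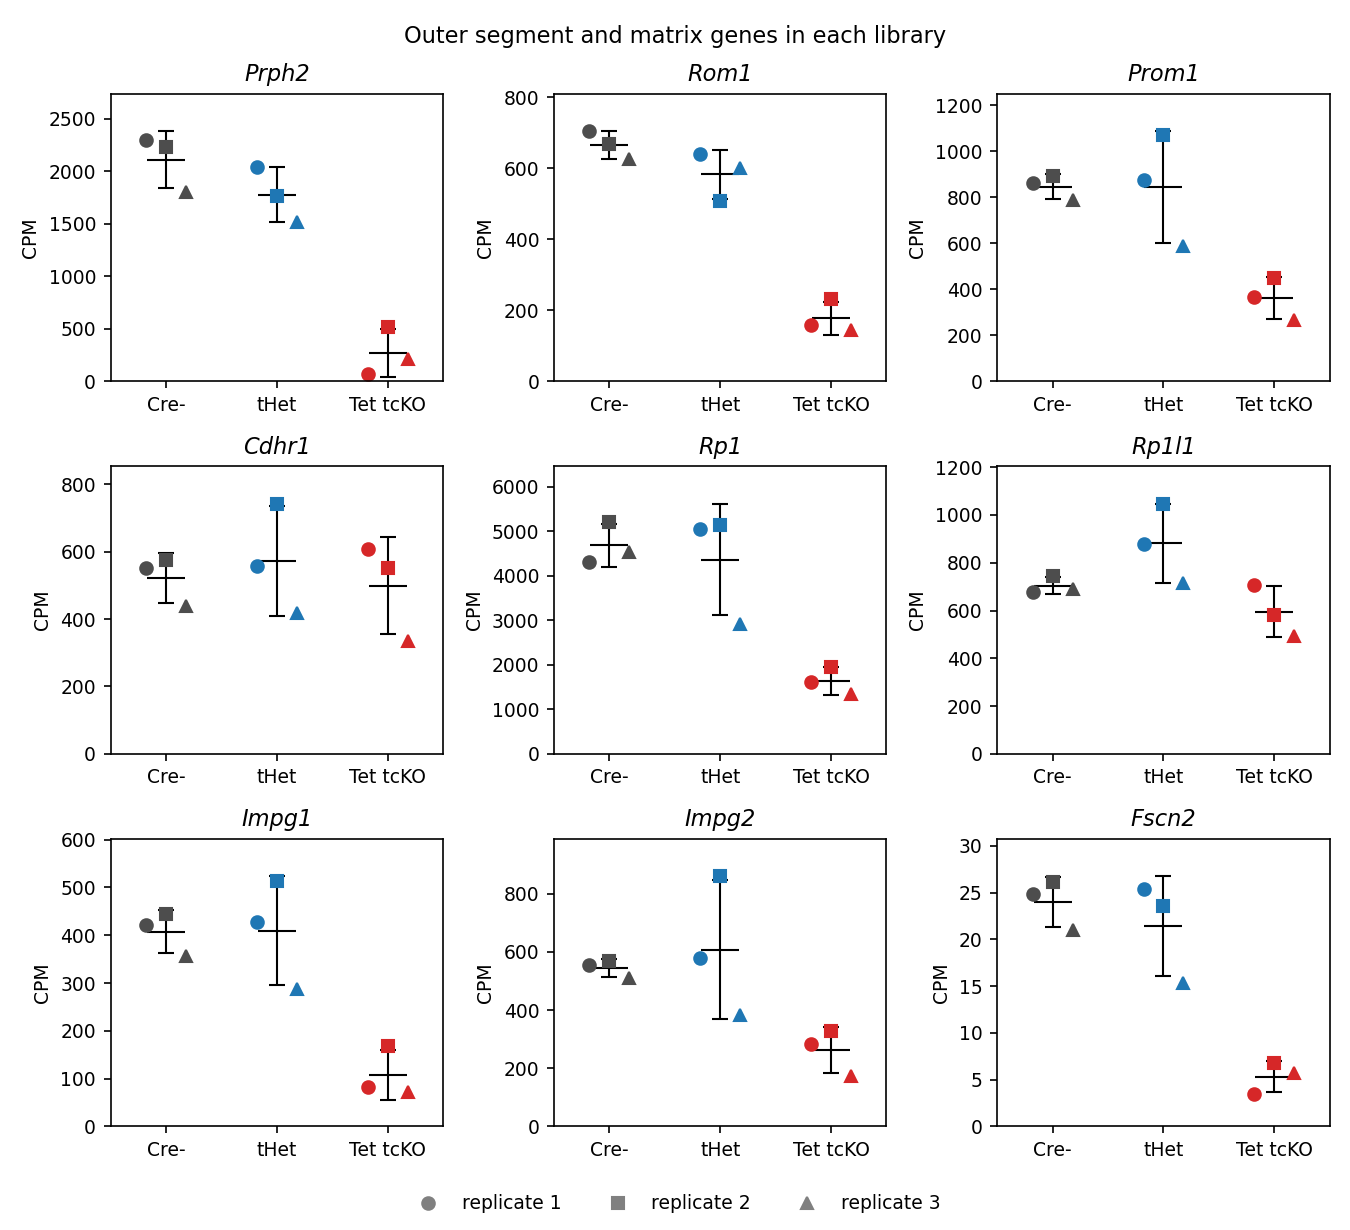
CPM of each gene (y axis, from 0, a scale per panel) in the 3 libraries of Cre-, tHet and Tet tcKO. Symbols mark the replicate, and the bar and whiskers are the mean and SD of 3 libraries. Tet tcKO lies under both other genotypes in 7 panels, while Cdhr1 overlaps both and Rp1l1 overlaps Cre-.

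The tetraspanin Prph2 (peripherin-2), which builds the curved disc rim, was the most reduced of the 9. It is on chromosome 17 (46910459 to 46924933, plus strand, mm10) and has 3 exons in its principal transcript. Its level was 2301, 2234 and 1799 CPM in the Cre- replicates, 2043, 1766 and 1518 in those of tHet and 71.7, 521 and 212 in those of Tet tcKO. The Tet tcKO libraries were below all 6 others, and they also differed among themselves by 7.27 times from lowest to highest, compared with 1.28 times in Cre-. The log2FC was −3.39 versus Cre- (SE 0.44, limma adjusted p = 4.37e-05) and −3.14 versus tHet (SE 0.44, limma adjusted p = 0.00013). These SEs rest on a residual spread shared by all genotypes, whereas Prph2 varied more within Tet tcKO than within the controls. They therefore understate the variation within Tet tcKO. Without Tet tcKO replicate 3, Prph2 was still called against Cre- (log2FC −3.44, limma adjusted p = 0.00826) but not against tHet (log2FC −3.18, limma adjusted p = 0.0139).

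Rom1, a tetraspanin of the same rim complex, fell less. It is on chromosome 19 (8927391 to 8929356, minus strand) and also has 3 exons. Its level was 704, 668 and 626 CPM in the Cre- replicates, 642, 507 and 601 in those of tHet and 158, 231 and 144 in those of Tet tcKO. The Tet tcKO libraries were again below all others, and differed among themselves by 1.60 times from lowest to highest, compared with 1.13 times in Cre-. The log2FC was −1.93 versus Cre- (SE 0.23, limma adjusted p = 1.84e-05) and −1.74 versus tHet (limma adjusted p = 7.79e-05), and Rom1 was called in both comparisons under every alternative tried.

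Mean levels in Tet tcKO were 12.7% of the Cre- mean for Prph2 and 26.6% for Rom1. The ratio of Prph2 to Rom1 within a library does not depend on that library's scaling. It was 3.27, 3.34 and 2.88 in Cre-, 3.18, 3.48 and 2.53 in tHet, and 0.455, 2.26 and 1.47 in Tet tcKO. Every Tet tcKO ratio was below every control ratio, and in replicate 1 Prph2 was the lower of the pair. The mean log2 ratio differed by −1.46 from Cre- and by −1.40 from tHet (exact two-sided permutation p = 0.1 for each, the smallest that 3 libraries against 3 allow, and 0.1 after adjustment over 6 tests). Without Tet tcKO replicate 1 the difference was −0.79 from Cre- and −0.74 from tHet.

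**Figure D2:**
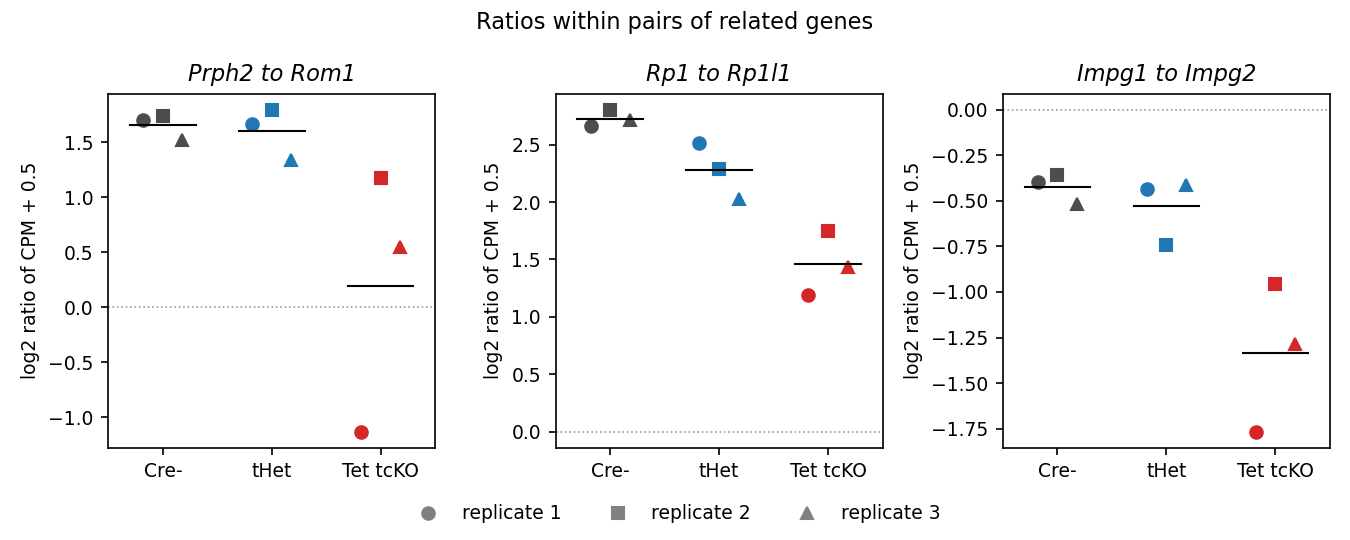
Log2 ratio of CPM + 0.5 (y axis) between related genes in each library, by genotype. Symbols mark the replicate and lines the mean of 3 libraries. In each pair the Tet tcKO libraries lie below all libraries of Cre- and tHet.

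Promoter windows of 300 bases, from 250 before a start site to 50 after it, came from RefSeq (GRCm38.p6). They were found for 7 of the 9 genes, all but Rp1 and Rp1l1. They were searched on both strands for TAATC, so that a match reads GATTA where it lies on the other strand. The photoreceptor factors CRX and OTX2 bind sites that open with these letters. TAATC was in 22.0% of 32841 windows and in 4 of the 8 windows of these genes, since Prom1 has a pair of windows. The windows of Prph2 (chr17:46910228-46910527, plus strand) and Rom1 (chr19:8929307-8929606, minus strand) are shown because the pair differed in size of change, with TAATC or GATTA in capitals.
Prph2: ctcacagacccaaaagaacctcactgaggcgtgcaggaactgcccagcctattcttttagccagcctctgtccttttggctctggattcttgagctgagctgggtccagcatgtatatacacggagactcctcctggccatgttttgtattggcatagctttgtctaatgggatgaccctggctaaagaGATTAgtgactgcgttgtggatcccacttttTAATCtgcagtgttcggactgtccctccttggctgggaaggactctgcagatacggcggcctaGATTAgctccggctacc
Rom1: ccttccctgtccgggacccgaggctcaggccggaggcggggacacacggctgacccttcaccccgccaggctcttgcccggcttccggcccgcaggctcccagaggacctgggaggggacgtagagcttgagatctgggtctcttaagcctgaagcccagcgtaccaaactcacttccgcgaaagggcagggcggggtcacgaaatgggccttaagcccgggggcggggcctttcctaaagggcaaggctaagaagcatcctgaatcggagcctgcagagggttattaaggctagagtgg
The Prph2 window holds 3 matches, the most of the 8 windows. These begin 61 and 30 bases before and 33 bases after the start site, and 0.658% of all windows hold at least 3. Rom1 holds 0. Rom1 has 18 CG dinucleotides and Prph2 has 7, which is the median of all windows (quartiles 3 and 20). The full TAATCC, which overlaps TAATC, was in 7.06% of windows and in 0 of the 8. TGCTGA, the core of the site for the rod factor NRL, was in 19.5% of windows and in 0 of the 8, and AGGTCA, the core bound by many nuclear receptors, was in 16.3% and in the Impg1 window alone of the 8. DNA methylation and factor binding at these windows were not analysed here, and a link between matches and size of change was not tested.

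Genes of nascent discs at the outer segment base did not move together. Prom1, a pentaspan membrane protein of disc evaginations, was called lower in both comparisons. Cdhr1, a photoreceptor cadherin at the edge of new discs, was called in neither. Fscn2, an actin-bundling fascin, was called lower in both.

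Prom1 (chromosome 5, 43993620 to 44102032, minus strand) was at 861, 891 and 788 CPM in the Cre- replicates, 875, 1071 and 586 in those of tHet and 368, 450 and 266 in those of Tet tcKO, with all Tet tcKO libraries lowest. The log2FC was −1.26 versus Cre- (SE 0.27, limma adjusted p = 0.00514) and −1.21 versus tHet (limma adjusted p = 0.00794). The call was lost in both comparisons without Tet tcKO replicate 1 (limma adjusted p = 0.0251 versus Cre- and 0.0371 versus tHet), without Tet tcKO replicate 3 (0.0289 and 0.0394), without Cre- replicate 3 (0.0215 and 0.0143) and with no filter on low values (0.0274 and 0.0381). It was also lost versus Cre- without Cre- replicate 2 (limma adjusted p = 0.0176) and versus tHet without tHet replicate 1 (0.0513) or 2 (0.0522). An exon of Gm16401 overlaps Prom1 on the opposite strand, and the strand setting of the counting is not given in the sources used here.

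Cdhr1 (chromosome 14, 37077857 to 37098347, minus strand) was at 552, 577 and 438 CPM in the Cre- replicates, 557, 742 and 418 in those of tHet and 608, 553 and 336 in those of Tet tcKO. Its ranges overlapped in all genotypes, and in Tet tcKO only the library with the ribosomal RNA excess was below both control ranges. The log2FC was −0.10 versus Cre- with a 95% interval from −0.67 to 0.47 (limma adjusted p = 0.948), and −0.20 versus tHet with an interval from −0.78 to 0.37 (limma adjusted p = 0.793). With CT010467.1 left out of the totals the sign against Cre- turned, to 0.061, and without Tet tcKO replicate 3 it was 0.16. The interval versus Cre- does not reach a log2FC of −1 in size. The Cdhr1 window (chr14:37098298-37098597, minus strand), shown because Cdhr1 was not called, has 0 matches to TAATC and 9 CG dinucleotides. It does not stand apart from the windows of genes that fell, since Rom1, Fscn2 (10 CG dinucleotides) and 1 of the 2 Prom1 windows (10 CG dinucleotides) also have 0 matches, and the other Prom1 window has 1.
Cdhr1: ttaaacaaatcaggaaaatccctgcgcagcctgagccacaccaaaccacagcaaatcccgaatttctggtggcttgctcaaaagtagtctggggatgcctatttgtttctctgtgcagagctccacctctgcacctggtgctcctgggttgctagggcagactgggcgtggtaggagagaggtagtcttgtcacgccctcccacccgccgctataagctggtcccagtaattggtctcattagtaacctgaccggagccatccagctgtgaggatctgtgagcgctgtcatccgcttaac

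Fscn2 (chromosome 11, 120361534 to 120368168, plus strand) had the lowest level of the 9 per kb of exon in all genotypes. It was at 24.9, 26.1 and 21.0 CPM in the Cre- replicates, 25.3, 23.6 and 15.3 in those of tHet and 3.50, 6.79 and 5.72 in those of Tet tcKO, with no overlap between Tet tcKO and the controls. These values lie well above 3 reads, which correspond to 0.142 to 0.312 CPM by library, a floor that covers counting error only. The log2FC was −2.11 versus Cre- (SE 0.28, limma adjusted p = 4.63e-05) and −1.92 versus tHet (limma adjusted p = 0.000156).

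Of the doublecortin-domain genes of the axoneme, Rp1 was called lower versus Cre- and Rp1l1 was not called. Rp1, which binds axonemal microtubules and aligns the discs, took the most reads of the 9 in every library. Rp1 (chromosome 1, 3999557 to 4409241, minus strand) was at 4298, 5213 and 4524 CPM in the Cre- replicates, 5043, 5127 and 2914 in those of tHet and 1618, 1960 and 1334 in those of Tet tcKO. Tet tcKO was lowest in all libraries. The log2FC was −1.53 versus Cre- (SE 0.35, limma adjusted p = 0.00814) and −1.38 versus tHet, short of the call (SE 0.35, limma adjusted p = 0.0187). The call against Cre- was lost without either of Tet tcKO replicates 1 and 3 (limma adjusted p = 0.0439 and 0.0269), without Cre- replicate 2 or 3 (0.0379 and 0.0409), without tHet replicate 1 (0.0148) and with no filter on low values (0.0482). edgeR and DESeq2 on the recovered reads called Rp1 against both controls.

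Its relative Rp1l1 (chromosome 14, 63992506 to 64035025, plus strand) was at 678, 746 and 690 CPM in the Cre- replicates, 880, 1047 and 715 in those of tHet and 708, 583 and 494 in those of Tet tcKO. Tet tcKO overlapped Cre-, and its highest library was just under the lowest tHet library. The log2FC was −0.26 versus Cre- with a 95% interval from −0.78 to 0.26 (limma adjusted p = 0.766), and −0.56 versus tHet with an interval from −1.08 to −0.05 (limma adjusted p = 0.230). The log2 ratio of Rp1 to Rp1l1 differed by −1.27 from Cre- and by −0.82 from tHet, without overlap. The exact two-sided permutation p was 0.1 for each, the smallest that 3 libraries against 3 allow, and 0.1 after adjustment. Mean levels in Tet tcKO were 35.0% of Cre- for Rp1 and 84.4% for Rp1l1.

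**Figure D3:**
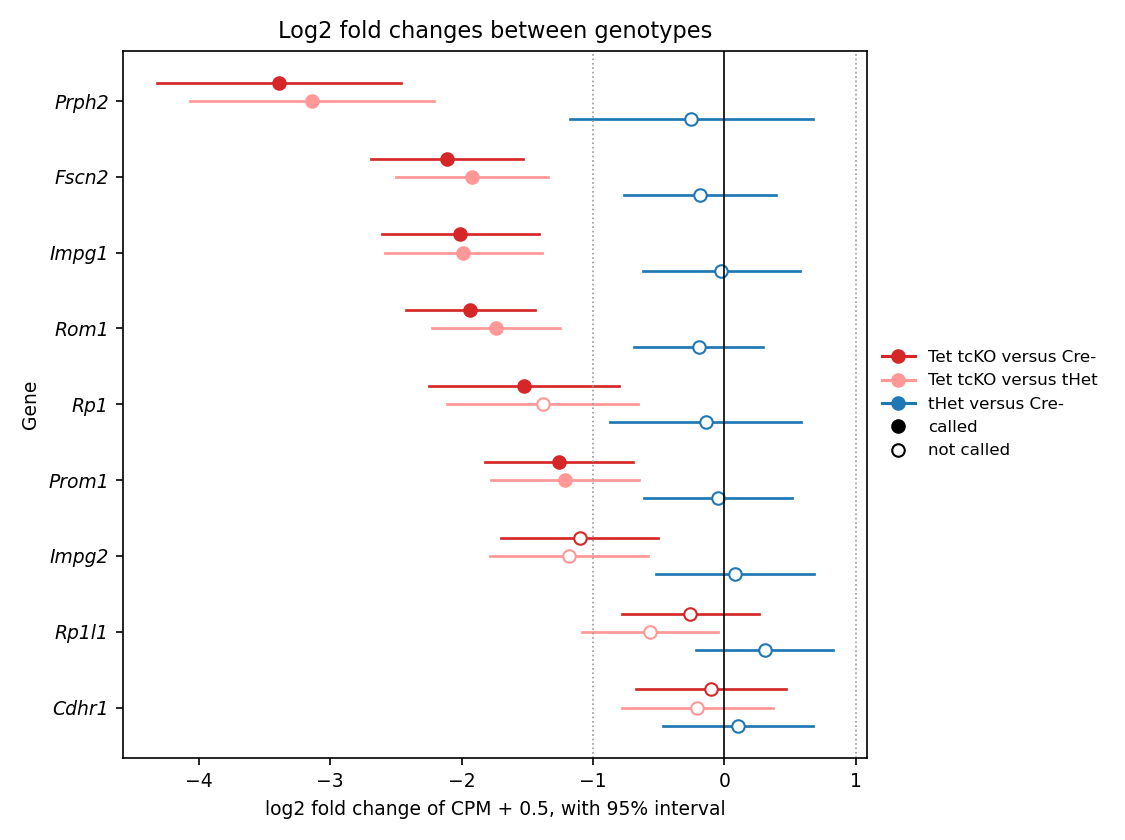
Log2FC of each gene (x axis, log2 of CPM + 0.5) in 3 comparisons, with 95% intervals from limma. Filled points were called, open points were not, and dotted lines mark a log2FC of −1 and 1. Prph2 reaches −3.39, while all tHet versus Cre- points lie between −0.25 and 0.31.

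The proteoglycan genes of the interphotoreceptor matrix were both lower in every Tet tcKO library than in any control, and only Impg1 was called by limma. Impg1 encodes a secreted proteoglycan and Impg2 its membrane-spanning relative. Impg1 (chromosome 9, 80313330 to 80465481, minus strand) was at 420, 444 and 357 CPM in the Cre- replicates, 427, 514 and 288 in those of tHet and 83.1, 169 and 71.6 in those of Tet tcKO. The log2FC was −2.01 versus Cre- (SE 0.29, limma adjusted p = 0.000114) and −1.99 versus tHet (limma adjusted p = 0.000155), a call in both comparisons.

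Impg2 (chromosome 16, 56204313 to 56273756, plus strand) was at 554, 569 and 511 CPM in the Cre- replicates, 578, 860 and 384 in those of tHet and 284, 328 and 175 in those of Tet tcKO. The groups did not overlap, but the adjusted p missed the threshold. The log2FC was −1.10 versus Cre- (SE 0.29, limma adjusted p = 0.0219) and −1.18 versus tHet (SE 0.29, limma adjusted p = 0.015). Over the alternatives its adjusted p versus Cre- ran from 1.79e-05 under DESeq2 to 0.114, and both edgeR and DESeq2 called it against both controls. The log2 ratio of Impg1 to Impg2 differed by −0.91 from Cre- and by −0.80 from tHet, with no overlap. The exact two-sided permutation p was 0.1 for each, again the smallest that 3 libraries against 3 allow, and 0.1 after adjustment. Their windows (Impg1 chr9:80465389-80465688, minus strand; Impg2 chr16:56204063-56204362, plus strand) are shown because the relatives fell by different amounts, with TAATC or GATTA in capitals.
Impg1: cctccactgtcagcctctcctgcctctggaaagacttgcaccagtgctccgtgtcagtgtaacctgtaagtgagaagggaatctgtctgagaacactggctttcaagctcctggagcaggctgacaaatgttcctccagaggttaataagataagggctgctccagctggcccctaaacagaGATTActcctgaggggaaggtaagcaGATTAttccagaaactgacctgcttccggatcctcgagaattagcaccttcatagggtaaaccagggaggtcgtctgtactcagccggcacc
Impg2: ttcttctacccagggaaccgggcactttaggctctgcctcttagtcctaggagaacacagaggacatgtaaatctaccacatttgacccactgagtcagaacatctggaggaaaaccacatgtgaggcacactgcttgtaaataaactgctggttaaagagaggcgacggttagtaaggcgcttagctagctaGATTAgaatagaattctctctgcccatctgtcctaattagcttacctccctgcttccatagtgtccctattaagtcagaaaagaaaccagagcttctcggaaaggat
Impg1 has 2 matches, 68 and 42 bases before the start site (3.94% of windows hold at least 2), Impg2 has 1, 57 bases before, and each window has 5 CG dinucleotides.

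Over all 9 genes, the highest Tet tcKO value was under the lowest Cre- value for 7, beside 9.6% of all genes tested, and under the lowest tHet value for 8, beside 9.68%. These counts were the same with CT010467.1 left out of the totals. In tHet versus Cre- the log2FC lay between −0.25 for Prph2 and 0.31 for Rp1l1, with a limma adjusted p of 0.9998 for each, and all tHet libraries were under the lowest Cre- value for 0 of the 9 (5.37% of all genes). The widest of these 95% intervals, for Prph2, ran from −1.18 to 0.68. Its width also reflects the Tet tcKO libraries, because the fit shares a residual spread over all genotypes. The 9 genes together took 0.975% to 1.14% of reads in Cre-, 0.744% to 1.17% in tHet and 0.304% to 0.480% in Tet tcKO. The makeup of this sum differed by genotype. Prph2 went from 20.1% ± 1.88 of the sum in Cre- to 6.55% ± 4.52 in Tet tcKO (SD, n = 3), Cdhr1 from 4.96% ± 0.425 to 12.7% ± 2.50, and Rp1l1 from 6.72% ± 0.308 to 15.5% ± 3.06, whereas Rp1 was at 44.5% ± 2.77 and 42.1% ± 1.64.

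Per kb of merged exon (GENCODE release 21 for mouse), the level in Cre- was highest for Prph2 at 703 ± 90.8 CPM per kb (SD, n = 3), followed by Rom1 at 439 ± 26.0 and Rp1 at 380 ± 38.7, which overlapped each other but not Prph2. Cdhr1 (121), Prom1 (118) and Impg1 (112 CPM per kb) overlapped, Rp1l1 (93.0) overlapped Impg1 alone of these, and Impg2 (58.7) and Fscn2 (11.4) stood apart below them. In Tet tcKO the order on this scale was Rp1 at 133 ± 25.5, Rom1 at 117 ± 30.6, Cdhr1 at 115 ± 33.2, Prph2 at 89.3 ± 76.6 and Rp1l1 at 78.5 ± 14.2 CPM per kb, each overlapping its neighbours, and then, with no overlap to Rp1l1, Prom1 (50.3), Impg1 (29.7), Impg2 (28.3) and Fscn2 (2.53). Rp1 has many annotated exons, and by its principal transcript alone it ranked 1 in all genotypes, so its place depends on the length taken.

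**Figure D4:**
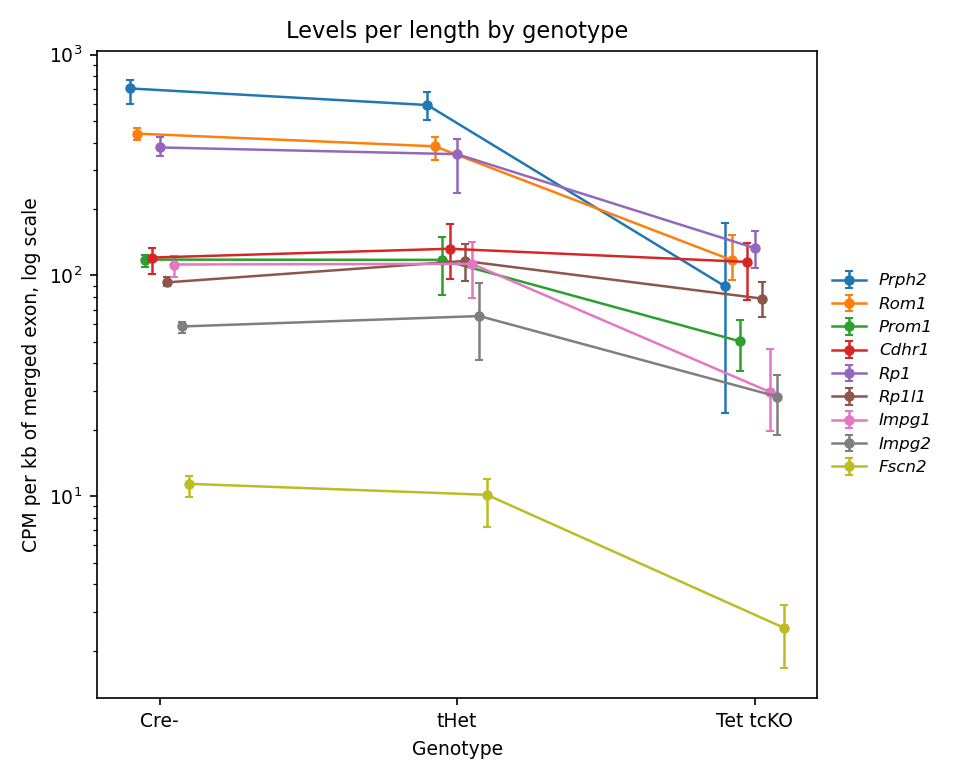
Mean CPM per kb of merged exon (y axis, log scale) of the 9 genes in each genotype, with whiskers from the lowest to the highest of 3 libraries. Prph2 is at the top in Cre- (703) and under Rp1, Rom1 and Cdhr1 in Tet tcKO (89.3), while Cdhr1 stays near 120 in Cre- (121) and Tet tcKO (115).

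The Tet tcKO libraries did not rank alike for all genes. In CPM, replicate 2 was the highest of the 3 for 7 genes and replicate 1 for Cdhr1 and Rp1l1, while replicate 3 was the lowest for 7 and replicate 1 for Prph2 and Fscn2. This order depends on the scaling. With CT010467.1 left out of the totals, replicate 2 was the highest for 6 genes, replicate 1 for Cdhr1 and Rp1l1 and replicate 3 for Fscn2, and the lowest library was replicate 1 for 6 genes. The 5 rod markers summed to 9807 to 11506 CPM per Cre- library, 9197 to 10666 per tHet library and 922 to 2915 per Tet tcKO library, with all 5 called lower in both comparisons, and the highest Tet tcKO sum was also in replicate 2. The rod marker sums of Tet tcKO were lowest in replicate 1, as was Prph2. The 7 cone markers summed to 406 to 524 CPM per Cre- library, 482 to 510 per tHet library and 1066 to 1608 per Tet tcKO library, and 6 were called higher. Of 4 markers of both photoreceptor types, 1 was called lower against each control (Rcvrn, log2FC −1.73 versus Cre-), and their sum was 2178 to 2289 CPM per Cre- library and 1168 to 1639 per Tet tcKO library. Crx, a transcription factor of both types, had a log2FC of −0.34 versus Cre- (limma adjusted p = 0.665). Among markers of other cells, 2 of 4 for Müller glia were called lower versus Cre- (sum 1286 to 1693 CPM per Cre- library and 589 to 938 per Tet tcKO library), 1 of 5 bipolar markers rose and 1 fell, 1 of 5 amacrine and ganglion markers fell, and of 7 for pigment epithelium and ciliary body 1 rose and 1 fell. Versus tHet, the same 2 Müller glia markers and the same amacrine marker were called lower, 1 bipolar marker rose and 0 fell, and of the pigment epithelium and ciliary body markers 0 rose and 3 fell. Optc, a ciliary body marker and the one of these that rose versus Cre-, was at a mean of 4.79 CPM (SD 3.21, n = 3) in Cre-, 69.3 (SD 28.5) in tHet and 50.8 (SD 29.6) in Tet tcKO, and was also called higher in tHet versus Cre- (log2FC 3.91, limma adjusted p = 0.000311). The part of these marker shifts in the values of the 9 genes was not tested.

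**Figure D5:**
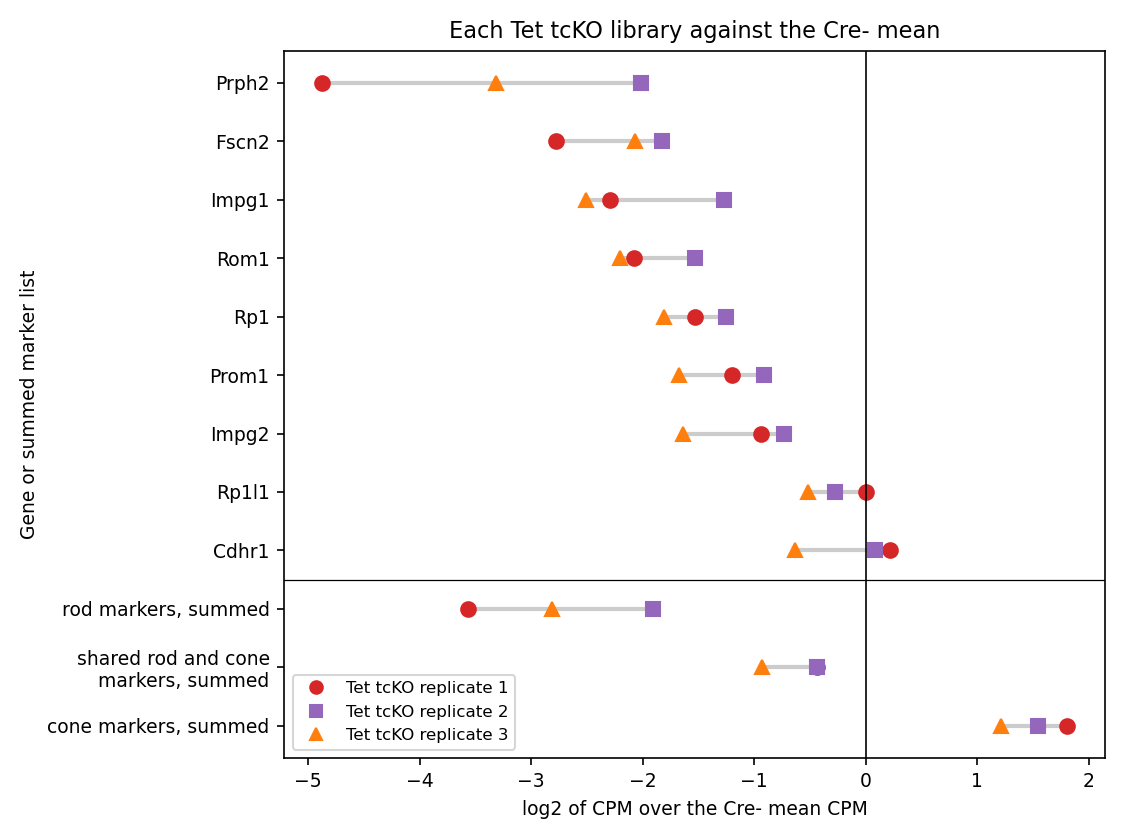
Log2 of each Tet tcKO library's CPM over the mean CPM of Cre- (x axis) for the 9 genes and for 3 summed marker lists (y axis), with a symbol per replicate. Prph2 and the summed rod markers span the widest range, and replicate 1 (−4.88 for Prph2) lies left of replicate 2 (−2.02).

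Other genes of the outer segment disc, rim and axoneme were called lower in part. Of 11 listed, 4 fell and 0 rose versus Cre-, with a median log2FC of −0.71, and 4 fell versus tHet with a median of −0.74. The 4 that fell versus Cre- were the channel subunits Cnga1 and Cngb1, Prcd, a small disc membrane protein, and Pcare, an actin-associated protein of disc formation. Cnga1 is also among the 5 rod markers, so the counts of these lists share it. Cngb1 fell by 1.76 on the log2 scale versus Cre- (limma adjusted p = 0.000179) and Pcare by 1.49 (limma adjusted p = 0.000461). Abca4, the disc rim retinoid flippase, had a log2FC of −0.96 (limma adjusted p = 0.0559). The ciliary genes Tulp1 (0.26), Rpgrip1 (0.32), Rpgr (0.46), Spata7 (−0.09) and Mak (−0.18) were not called, and their limma adjusted p lay above 0.4.

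Of 5 genes of the interphotoreceptor matrix and retinal adhesion, 0 fell and 1 rose versus Cre-, with a median log2FC of −0.42. Vcan, which encodes the large proteoglycan versican, rose with a log2FC of 2.01 (limma adjusted p = 6.72e-05), from a mean of 9.12 CPM (SD 1.04) in Cre- to 39.6 (SD 13.6) in Tet tcKO. Its tHet mean was 35.8 CPM (SD 12.3), and its log2FC of Tet tcKO versus tHet was 0.14 (limma adjusted p = 0.867). Rbp3, the retinoid-binding protein of the matrix, had a mean of 3208 CPM (SD 384) in Cre- and 1527 (SD 574) in Tet tcKO and missed the threshold (log2FC −1.14, limma adjusted p = 0.0563).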

How the data were processed

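Bulk RNA-seq of P21 whole retina was analysed for Cre-, tHet and Tet tcKO, 3 libraries each, grouped by the sample labels. The authors removed ribosomal RNA, made stranded libraries, trimmed reads with Trim Galore 0.6.7, aligned them to mm10 with STAR 2.7.0f and counted them with HTSeq 0.11.2. The annotation release and strand setting are not given in the sources used here. The authors deposited CPM values per gene, divided by each library's total, together with log2 fold changes, log2 mean levels and p-values from edgeR 4.2.2 comparisons of their own. The deposited log2 and p-value columns, made by the authors, were not used. Each CPM value above 0 equalled a whole number of reads (100%, within 0.02 of a read), so reads were recovered, 9627927 to 21108256 per library. Replicates come from separate pools of 2 animals, and all 9 pairs of libraries within a genotype differed by more than sampling noise (chi-square per degree of freedom 15.0 to 341).

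The 21330 genes that reached 0.5 CPM in 3 or more of the 9 libraries were fitted on log2(CPM + 0.5) by limma 3.58.1 (R 4.3.3), with an intensity trend, 1 mean per genotype and all 9 libraries, and Benjamini-Hochberg adjustment over all genes tested. Each gene had a residual spread shared by all genotypes. Ratios between related genes were tested with an exact two-sided permutation test. The genes and lists were chosen with earlier results of these data known. All 9 genes are named whatever their values, list genes were named from lists of at most 12 genes, genes were named from the 5 others with the highest Pearson r to their mean profile, and CT010467.1 and Xist were named after their values were seen. Some genes that these rules name are not reported here, and the list counts, medians and sums were computed without them. The alternatives were other pseudocounts, filters, scalings and thresholds, edgeR 4.0.16 and DESeq2 1.42.0 on the recovered reads, a replicate block, the compared libraries alone and leaving out each library. The fits were tested on simulated data with equal spread in all genotypes and no library set apart by ribosomal RNA. There, limma recovered 200 of 200 genes given a log2FC of 2 in size, with 2 false calls. This does not cover the unequal spread or the ribosomal RNA excess of the real libraries. Positions and lengths came from GENCODE release 21 for mouse. Rp1 carries a later version of its identifier in the table than in that release, so its length there is uncertain. Proteins were not used here. Figures were drawn with matplotlib 3.10.9.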

Additional observations from a re-analysis of the deposited data

How the results depend on the processing

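Precision was limited by 3 libraries per genotype. All 66 alternative values of the pair ratios kept their direction. Since the groups did not overlap, leaving out a library could not have reversed it. Of 540 alternative values of single genes, 486 kept their direction and side of the threshold, 18 lost a call, 23 gained one and 13 changed sign. Many of the 540 had no call to lose. The losses were in Prom1 (5 of 20 values versus Cre-, 6 of 20 versus tHet), Rp1 (6 of 20 versus Cre-) and Prph2 (1 of 20 versus tHet). The gains were in Impg2 (8 of 20 versus Cre-, 10 of 20 versus tHet) and Rp1 (5 of 20 versus tHet). The sign changes were those of Cdhr1, 0.061 versus Cre- with CT010467.1 left out of the totals, and otherwise arose with 1 library left out. Then Cdhr1 ranged from −0.27 to 0.16 versus Cre-, −0.41 to 0.058 versus tHet and −0.10 to 0.31 in tHet versus Cre-. In tHet versus Cre- the range was −0.32 to 0.031 for Fscn2, −0.21 to 0.21 for Impg1, −0.21 to 0.37 for Impg2, −0.24 to 0.20 for Prom1 and −0.28 to 0.12 for Rp1.

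The number of the 9 genes called was 4 to 7 versus Cre- and 3 to 7 versus tHet with 1 library left out, and 4 to 7 in both over the other settings. Across all genes, 768 were called versus Cre- (434 higher, 334 lower), 640 versus tHet (297 higher, 343 lower) and 9 in tHet versus Cre-. With CT010467.1 left out of the totals the first 2 were 828 (607 higher, 221 lower) and 639 (424 higher, 215 lower). Leaving out 1 library gave 360 to 976, 287 to 959 and 0 to 17. The count moved by over 1.5 times versus Cre- without Cre- replicate 3 (422), Tet tcKO replicate 1 (360) or Tet tcKO replicate 3 (430), versus tHet without tHet replicate 1 (339), Tet tcKO replicate 1 (287) or Tet tcKO replicate 3 (373), and in tHet versus Cre- without Cre- replicate 3 (4), tHet replicate 3 (17), Tet tcKO replicate 1 (5) or Tet tcKO replicate 3 (0). An adjusted p under 0.05 gave 1156, 1104 and 20, and no filter gave 417, 351 and 1 among 40828 genes. Versus tHet, DESeq2 gave 1046 and the compared libraries alone 1013. In tHet versus Cre-, DESeq2 gave 40, and TMM scaling, upper-quartile scaling, leaving out CT010467.1, edgeR and the compared libraries alone gave 1 each. With the replicate number as a block, 1127, 1125 and 40 genes were called, and 7 and 6 of the 9 in the Tet tcKO comparisons. The labels give no shared litter or day for a number, and deviations of same-numbered libraries correlated at −0.35 to 0.56 (mean 0.11, 5 of 9 pairs over 0.1), beside a mean of −0.052 for different numbers, so the numbers were not taken to pair the libraries. All 3 pairs of replicates 2 were over 0.1 (0.27 to 0.36), and so were those among the 3 libraries low in Xist (0.34 to 0.56). The cause of these differences was not tested.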

Other observations

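Relatives of the 9 genes were not called in any comparison, by limma at the same thresholds, with 7 of 11 listed genes passing the filter on low values. Their log2FC in Tet tcKO versus Cre- ran from −0.65 for Prom2, a relative of Prom1, to 0.45 for Dclk1, a doublecortin-family kinase, with a median of −0.07. Prom2 had a mean of 1.04 CPM in Cre- and 0.474 in Tet tcKO, near the added 0.5 CPM, so its log2FC is understated. Fscn1, the broadly expressed fascin, had a mean of 33.9 CPM (SD 7.68, n = 3) in Cre- and 23.9 (SD 3.95, n = 3) in Tet tcKO.

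Among the genes outside the 9 whose levels followed their mean profile most closely over the 9 libraries were Icmt (Pearson r = 0.999), Cfap61 (0.993), St8sia1 (0.992) and Sag (0.992), given as a description, since the points share libraries, depth and genotype. Icmt encodes the prenylcysteine carboxyl methyltransferase and Sag the rod arrestin. Mean levels of Icmt were 67.1 CPM in Tet tcKO, 217 in Cre- and 227 in tHet, and those of Sag were 2117, 4174 and 4280 CPM. With CT010467.1 left out of the totals, Sag was no longer among the 5 closest genes.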
